A study of Mus musculus with 15 samples.

Results

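The GDNF receptor family was followed in mouse embryonic stem cells in which Tet1 or Sin3A had been knocked down. Its 8 genes were Gfra1, Gfra2, Gfra3, Gfra4, Ret, Gdnf, Nrtn and Artn, found by gene symbol among the 21212 probe sets of an Affymetrix array, and all 8 were present with 1 probe set each. Gfra2 was chosen by its difference between the Tet1 hairpin arrays and the scrambled arrays of this same data set, so its values there are given as a description with no test. The other 7 genes entered by name, as its family. Of the 15 arrays, 9 formed the Tet1 set, with 3 each of Tet1 shRNA 4, Tet1 shRNA 5 and a scrambled shRNA. The other 6 formed the Sin3A set, with 3 of a Sin3A shRNA and 3 of a scrambled shRNA of their own. All samples were E14TG2a.4 cells, a feeder-independent embryonic stem cell line kept in leukaemia inhibitory factor. Every group, the scrambled ones included, had received a PLKO.1 lentivirus and puromycin at 2 µg per ml, begun 36 hours after transduction and kept up for 72 hours. Sin3A was targeted by 1 hairpin, so loss of Sin3A and other effects of that hairpin cannot be told apart. Whether the 3 samples of a group were grown apart is not stated, so a p-value reflects how far these arrays scatter, which could be technical scatter alone.

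Ligands of the GDNF family signal through a pair of receptor parts. A GFRα protein, held in the outer leaflet of the cell membrane by a glycosylphosphatidylinositol (GPI) anchor, binds the ligand, and the complex then engages RET, a transmembrane receptor tyrosine kinase. GDNF prefers the protein of Gfra1, neurturin (Nrtn) that of Gfra2, artemin (Artn) that of Gfra3, and persephin (Pspn) that of Gfra4. The system is known for its part in the ureteric bud of the kidney, the enteric nervous system, peripheral and motor neurons, and the spermatogonial stem cell. TET1 oxidises 5-methylcytosine in DNA, and SIN3A holds together a co-repressor complex that carries histone deacetylases.

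Levels are the deposited log2 values, on which a difference of 1 is a doubling, and they were compared only within a set because the sets appear to have been normalized separately (array means of 7.08 to 7.11 in the Tet1 set and 8.09 in the Sin3A set). Tet1 itself fell by 1.78 (SE 0.07) with Tet1 shRNA 4 and fell by 2.10 (SE 0.07) with Tet1 shRNA 5, and Sin3a fell by 1.55 (SE 0.05) with the Sin3A shRNA (limma adjusted p 2.08e-06, 1.51e-06 and 1.28e-05). Sin3a also fell with the Tet1 hairpins, by 0.27 and 0.24 (limma adjusted p 0.0147 and 0.0219), calls that were lost without certain single arrays. Tet1 rose by 0.31 with the Sin3A shRNA (limma adjusted p 0.00679). All 10 stem cell markers lay above the array's median on all 15 arrays. A probe set was called when limma's p, after Benjamini-Hochberg adjustment over all 21212 of them, was under 0.05. The number of arrays, 3 in each group, limits the precision of every value. In cell populations of this kind, fewer cells with a transcript and less of it per cell cannot be told apart.

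Gfra2, the receptor for neurturin, was higher in all 3 knockdowns. Its log2 level was 9.42, 9.67 and 9.37 on the Tet1 shRNA 4 arrays and 9.50, 9.63 and 9.65 on the Tet1 shRNA 5 arrays, against 7.60, 7.31 and 7.22 on the scrambled arrays of the same set. In the Sin3A set it was 10.15, 10.10 and 9.92 with the Sin3A shRNA, against 8.32, 8.43 and 8.32 with the scrambled shRNA. No knockdown array overlapped the scrambled arrays of its set, and the lowest knockdown array stood more than 1 log2 unit above the highest scrambled array. The mean was 9.48 ± 0.16 with Tet1 shRNA 4 and 9.59 ± 0.08 with Tet1 shRNA 5, against 7.37 ± 0.20 with the scrambled shRNA (SD, n = 3 each), a difference of 2.11 (4.32-fold) for shRNA 4 and 2.22 (4.66-fold) for shRNA 5. Of all 21212 probe sets, that of Gfra2 had the highest log2 difference with either Tet1 hairpin, rank 1 in both. The hairpins differed from each other by 0.11, with overlapping arrays.

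The Sin3A set had its own controls. Gfra2 was chosen with earlier results of these data known, so the limma p below is no independent test of it. Gfra2 averaged 10.06 ± 0.12 with the Sin3A shRNA and 8.36 ± 0.07 with the scrambled shRNA (SD, n = 3 each). It rose by 1.70 (95% interval 1.53 to 1.87), or 3.25-fold, with a limma adjusted p of 2.34e-05, and ranked 2 among all probe sets. The call held in all 12 alternatives, with changes of 1.65 to 1.77. The mean Tet1 difference exceeded the Sin3A difference by 0.46 for Gfra2, a description with no test.

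**Figure D1:**
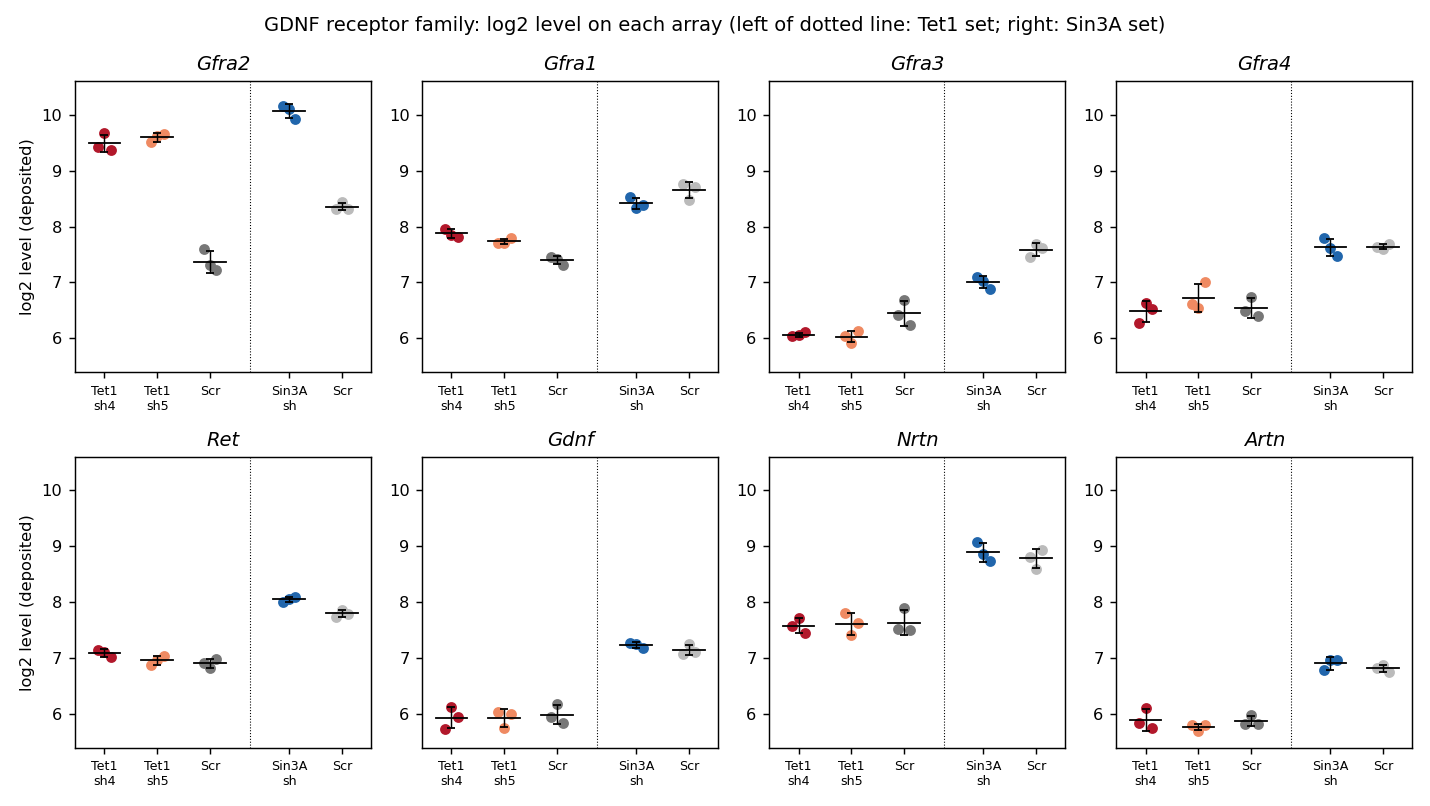
Log2 level of the 8 genes on each of the 15 arrays, with knockdown groups left of the scrambled group (Scr) of their set; points are arrays, long bars are means and short bars SDs (n = 3). Gfra2 averages 9.48 and 9.59 with the Tet1 hairpins against 7.37 with the scrambled one, and 10.06 with the Sin3A hairpin against 8.36; Gdnf, Nrtn and Gfra4 overlap their scrambled arrays throughout.

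Gfra1, the receptor that GDNF prefers and a marker of spermatogonial stem cells, rose with both Tet1 hairpins. It stood at 7.96, 7.85 and 7.82 with Tet1 shRNA 4 and at 7.71, 7.71 and 7.79 with Tet1 shRNA 5, against 7.46, 7.42 and 7.32 with the scrambled shRNA. Both Tet1 groups lay wholly above the scrambled arrays. The change was 0.48 (95% interval 0.33 to 0.62), or 1.39-fold, with shRNA 4 and 0.34 (0.19 to 0.48), or 1.26-fold, with shRNA 5 (limma adjusted p 0.00112 and 0.00687). In the Sin3A set the gene stood at 8.52, 8.34 and 8.38 with the Sin3A shRNA, against 8.76, 8.48 and 8.71 with the scrambled shRNA, and these arrays overlapped. The difference of -0.24 (-0.44 to -0.04) did not pass the test there (limma adjusted p 0.0824). It did pass without scrambled replicate 2, at -0.32 (adjusted p 0.023), in the fit of all 15 arrays (adjusted p 0.0375) and with low probe sets left out (adjusted p 0.0421).

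Of 10 spermatogonia markers, Gfra1 among them, 4 rose with both Tet1 hairpins (5.4% of all probe sets did), 1 fell with both (3.4% did) and 5 passed with neither. The list's mean log2 level was 7.47 to 7.52 on the Tet1 shRNA 4 arrays and 7.42 to 7.52 on the Tet1 shRNA 5 arrays, against 7.22 to 7.28 on the scrambled arrays. Beside Gfra1, those that rose included Dazl, an RNA-binding protein of germ cells, by 0.74 and 0.77, and Sohlh2, a transcription factor of early germ cells, by 0.93 and 0.83. The 1 that fell was Lin28a, although its call with shRNA 5 was lost without Tet1 shRNA 5 replicate 2 (adjusted p 0.0741), Tet1 shRNA 5 replicate 3 (0.0629) or scrambled replicate 3 (0.0535). Nanos2, which defines the stem cells among spermatogonia, stayed within the level of olfactory receptor probe sets on at least 1 array of every group. The part of such cells in the Gfra1 result was not tested.

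Gfra3, the receptor for artemin, was lower in all 3 knockdowns. Its levels were 6.04, 6.06 and 6.11 with Tet1 shRNA 4 and 6.04, 5.93 and 6.13 with Tet1 shRNA 5, against 6.42, 6.68 and 6.24 with the scrambled shRNA. With the Sin3A shRNA they were 7.11, 7.02 and 6.89, against 7.46, 7.69 and 7.62 with the scrambled shRNA. None of the 3 knockdown groups overlapped its scrambled arrays. In the Sin3A set the gene fell by 0.58 (95% interval -0.76 to -0.39), or 1.49-fold lower (limma adjusted p 0.00169). The call held in all 11 alternatives in which Gfra3 was measured (the filter on low probe sets leaves it out).

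The fall of Gfra3 in the Tet1 set was less secure. It fell by 0.38 with shRNA 4 (95% interval -0.61 to -0.15, limma adjusted p 0.041) and by 0.42 with shRNA 5 (-0.65 to -0.19, adjusted p 0.0234). The shRNA 4 call was lost without Tet1 shRNA 4 replicate 1 (adjusted p 0.123), replicate 2 (0.0941) or replicate 3 (0.0894), and without scrambled replicate 1 (0.0875) or replicate 2 (0.0674). It was also lost with the replicate number as a block over all 9 arrays (0.071). Over the shRNA 4 and scrambled arrays alone it was lost without a block (0.0929) and with it (0.0591). The shRNA 5 call was lost without Tet1 shRNA 5 replicate 1 (0.0698) or replicate 2 (0.0939), and without scrambled replicate 1 (0.0552). Scrambled replicate 2, at 6.68, was the highest of the 9 Tet1-set arrays for Gfra3, and the difference with shRNA 4 was -0.27 without it.

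Gfra4, the receptor for persephin, passed no test. Its levels were 6.28, 6.64 and 6.53 with Tet1 shRNA 4 and 6.61, 6.55 and 7.0 with Tet1 shRNA 5, against 6.48, 6.75 and 6.40 with the scrambled shRNA. In the Sin3A set they were 7.79, 7.61 and 7.48 with the Sin3A shRNA, against 7.64, 7.61 and 7.68 with the scrambled shRNA. The arrays overlapped in all 3 comparisons. The differences were -0.06 with shRNA 4 (95% interval -0.38 to 0.26), 0.17 with shRNA 5 (-0.14 to 0.49) and -0.01 with the Sin3A shRNA (-0.20 to 0.17), so changes of up to about these bounds would not have been seen.

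Ret, the kinase shared by the GFRα receptors, rose slightly in the Sin3A knockdown. It stood at 8.01, 8.06 and 8.09 with the Sin3A shRNA, against 7.74, 7.86 and 7.80 with the scrambled shRNA, with no overlap. The change was 0.25 (95% interval 0.13 to 0.38), or 1.19-fold (limma adjusted p 0.0119), and the call was lost without Sin3A shRNA replicate 2 (adjusted p 0.0523). In the Tet1 set Ret was at 7.15, 7.11 and 7.02 with Tet1 shRNA 4 and at 6.88, 6.97 and 7.04 with Tet1 shRNA 5, against 6.91, 6.83 and 6.99 with the scrambled shRNA. The shRNA 4 arrays lay above the scrambled ones and the shRNA 5 arrays overlapped them. The differences, 0.19 (0.03 to 0.34) and 0.06 (-0.10 to 0.21), did not pass (limma adjusted p 0.131 and 0.693). Of 10 markers of the ureteric bud, where Ret is known to act, Ret alone rose with the Sin3A shRNA and 2 fell (12.2% of all probe sets rose and 12.6% fell), and the list's mean log2 level was 7.38 to 7.50 with the Sin3A shRNA, against 7.55 to 7.59 with the scrambled shRNA.

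None of the 3 ligand genes passed a test in any knockdown. Nrtn, which encodes the ligand that Gfra2 prefers, was at 7.58, 7.71 and 7.46 with Tet1 shRNA 4 and at 7.81, 7.41 and 7.63 with Tet1 shRNA 5, against 7.51, 7.90 and 7.50 with the scrambled shRNA. Its levels in the Sin3A set were 9.07, 8.86 and 8.74 with the Sin3A shRNA, against 8.81, 8.60 and 8.93 with the scrambled shRNA. All 3 knockdown groups overlapped their controls, with differences of -0.05 (95% interval -0.34 to 0.24), -0.02 (-0.31 to 0.27) and 0.11 (-0.14 to 0.36) for shRNA 4, shRNA 5 and the Sin3A shRNA.

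Gdnf, the founding ligand of the family, was at 5.74, 6.12 and 5.95 with Tet1 shRNA 4 and at 6.04, 5.76 and 6.0 with Tet1 shRNA 5, against 5.95, 6.17 and 5.85 with the scrambled shRNA. The Sin3A shRNA arrays gave 7.28, 7.26 and 7.18, against 7.07, 7.25 and 7.12 with the scrambled shRNA. Its arrays overlapped in every comparison, and its differences were -0.06 (95% interval -0.33 to 0.22), -0.06 (-0.33 to 0.21) and 0.09 (-0.05 to 0.24), with limma adjusted p of 0.843, 0.827 and 0.337. Artn was at 5.84, 6.11 and 5.74 with Tet1 shRNA 4 and at 5.80, 5.70 and 5.81 with Tet1 shRNA 5, against 5.83, 5.98 and 5.83 with the scrambled shRNA. For the Sin3A shRNA it was at 6.78, 6.97 and 6.97, against 6.82, 6.89 and 6.76 with the scrambled shRNA. Its shRNA 5 arrays lay just below the scrambled ones and the other groups overlapped. The differences of Artn were 0.01 (95% interval -0.20 to 0.22), -0.11 (-0.32 to 0.10) and 0.09 (-0.07 to 0.25), with limma adjusted p of 0.951, 0.537 and 0.427. Persephin, encoded by Pspn and not a member of the set, differed by -0.01, -0.10 and -0.04 and passed nowhere (adjusted p 0.955, 0.479 and 0.725).

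Among the 7 genes other than Gfra2, 1 rose (Gfra1) and 1 fell (Gfra3) with Tet1 shRNA 4, where 11.6% of all probe sets were called (6.88% higher and 4.71% lower). With the replicate number as a block, Gfra1 alone was called there. The same 2 were called with shRNA 5, where 13.8% of all probe sets were (8.37% higher and 5.46% lower). Their median difference was -0.05 with shRNA 4 and -0.02 with shRNA 5, against 0.00 over all probe sets in both. In the Sin3A knockdown 1 of the 7 rose (Ret) and 1 fell (Gfra3), where 24.8% of all probe sets were called (12.2% higher and 12.6% lower). The median of the 7 there was 0.09 against 0.01 over all probe sets. Groups did not overlap for 3 of these 7 genes with each Tet1 hairpin (25.0% of all probe sets with shRNA 4 and 28.9% with shRNA 5) and for 2 of the 7 with the Sin3A shRNA (40.5%). Both Tet1 comparisons share their 3 scrambled arrays. Between the hairpins, Tet1 shRNA 5 against Tet1 shRNA 4, limma called none of the 7, as it called 0.141% of all probe sets, and none had an unadjusted p under 0.05. For Gfra1 the shRNA 5 arrays lay wholly below the shRNA 4 arrays, a difference of -0.14 (95% interval -0.28 to 0.00, adjusted p 0.589), the only non-overlap of the 7 in that comparison (14.9% of all probe sets).

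**Figure D2:**
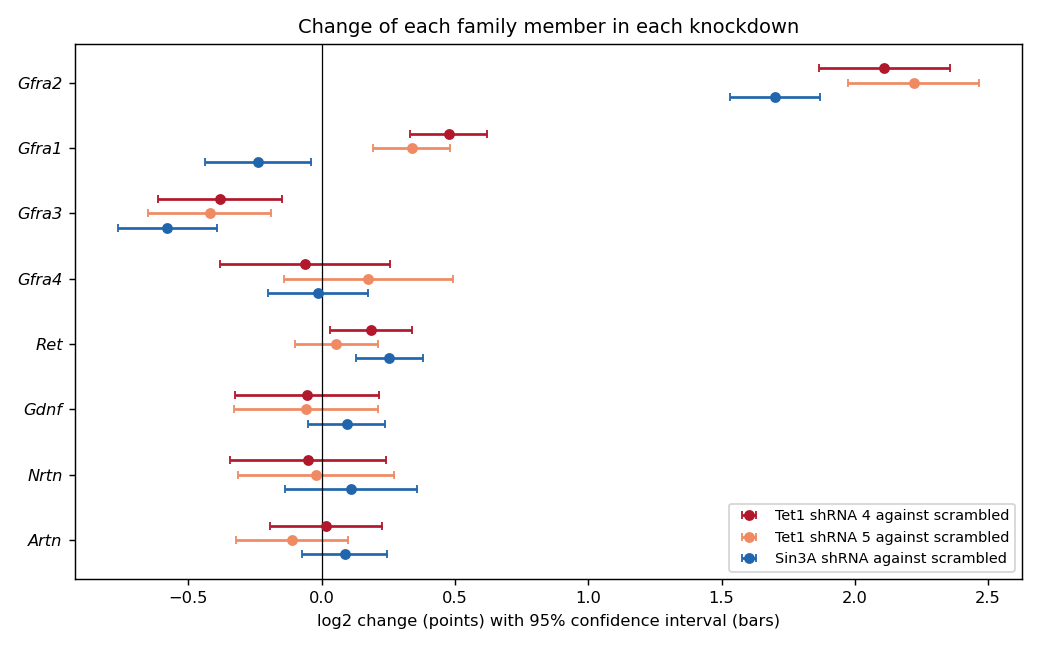
Log2 change of the 8 genes with each hairpin against the scrambled arrays of its set; points are limma estimates and bars 95% confidence intervals (n = 3 arrays a group), and for Gfra2 in the Tet1 comparisons they are a description. Gfra1 lies above 0 with both Tet1 hairpins (0.48 and 0.34) and at -0.24 with the Sin3A hairpin, while Gfra3 lies below 0 in all 3 (-0.38, -0.42 and -0.58).

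The effects of Tet1 and Sin3A loss were set against each other in 1 fit of all 15 arrays. Each target was knocked down in its own array set, so differences by target and by set cannot be told apart. Of the 7 genes tested, only Gfra1 differed, where 20.0% of all probe sets did. Its mean Tet1 effect minus its Sin3A effect was 0.65 (SE 0.10, 95% interval 0.43 to 0.86, limma adjusted p 0.000383), and the call held in all 18 alternatives, with values of 0.59 to 0.73. For Gfra3 the difference of the effects was 0.18 (-0.10 to 0.46, adjusted p 0.402) and for Ret it was -0.13 (-0.31 to 0.04, adjusted p 0.304), so neither was called. The remaining 4 lay between -0.15 and 0.07.

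Whether the co-receptor and ligands were expressed was described by position, since the files give no detection call and probe sets differ in affinity. The position of a gene was its percentile among all probe sets of its array, beside that of 1068 probe sets of olfactory receptor genes, taken as mostly silent in these cells. The 95th percentile of the olfactory receptor probe sets lay at 31.9 to 33.6% of all probe sets in the Tet1 set and at 29.9 to 31.7% in the Sin3A set. On the 6 scrambled arrays, Gfra1, Gfra2 and Nrtn were above the array's median throughout, 3 of the 8 genes. Together with Gfra3, Gfra4 and Ret, 6 of the 8 were above the olfactory receptor 95th percentile on all 6.

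Ret lay close to the middle of the arrays, at a mean percentile of 52.0 with Tet1 shRNA 4 and 50.1 with Tet1 shRNA 5, against 49.3 with the scrambled shRNA, and at 50.5 with the Sin3A shRNA, against 46.5 with its scrambled shRNA. Among the ligands, Nrtn was at 59.1 and 59.6 with the Tet1 hairpins, against 60.5 with the scrambled shRNA, and at 63.2 with the Sin3A shRNA, against 61.6. Gdnf was near the olfactory receptor level, above its 95th percentile on 2 of 3 scrambled arrays of the Tet1 set and on 3 of 3 of the Sin3A set. Artn was above it on none of 3 and on 1 of 3. For Artn, and for Gdnf in the Tet1 set, a signal beyond that of mostly silent genes was therefore not seen on every control array. Gfral, which encodes the distant GFRα-like receptor of GDF15, stood at the 6.6th percentile with the scrambled shRNA of the Tet1 set and the 5.7th with that of the Sin3A set.

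Of the 8 genes, Gfra2 had the widest shift in position. Its mean percentile was 84.0 with Tet1 shRNA 4 and 85.0 with Tet1 shRNA 5, against 56.5 with the scrambled shRNA, and 79.8 with the Sin3A shRNA, against 55.3. Gfra3 moved the other way, to 35.2 and 34.7 with the Tet1 hairpins against 41.7 with the scrambled shRNA, and to 32.5 with the Sin3A shRNA against 43.0. Under the Sin3A shRNA, Gfra3 was above the olfactory receptor 95th percentile on 2 of 3 arrays. These percentiles give no order among the genes.

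**Figure D3:**
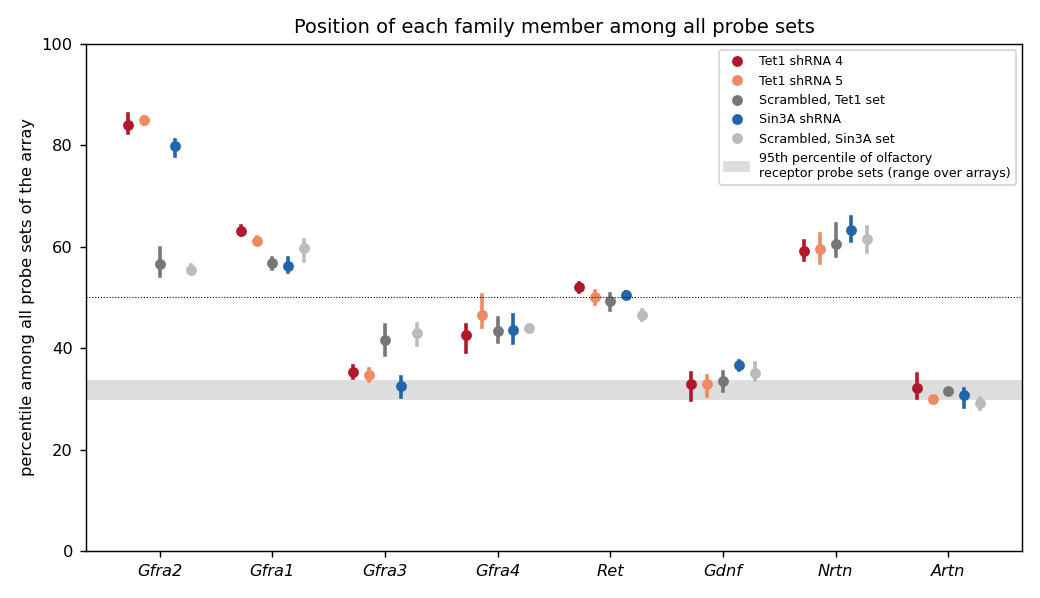
Percentile of each gene among all probe sets of its array; points are group means and vertical bars the range over 3 arrays, the grey band is the range over arrays of the olfactory receptor 95th percentile, and the dotted line is the array's median. Gfra2 sits at 84.0 and 85.0 with the Tet1 hairpins against 56.5 with the scrambled shRNA, whereas Gdnf and Artn lie at or near the band in every group.

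The genes whose pattern was most like that of Gfra2 were found by Pearson's r over the 15 arrays, after the mean of the scrambled arrays of the same set had been subtracted. The arrays share controls and normalization, so r is a description. The 5 with the highest r were Bcorl1 (0.99), a BCOR-like co-repressor gene, Etv6 (0.98), an ETS-family repressor, Tbc1d1 (0.98), a Rab GTPase-activating protein, Syndig1 (0.98), a synaptic membrane protein, and Islr2 (0.98), a neuronal membrane protein. Bcorl1 was higher by 0.88 with shRNA 4, by 0.89 with shRNA 5 and by 0.65 with the Sin3A shRNA. Islr2 was higher by 1.20, 1.17 and 0.79. Both differences are smaller than those of Gfra2, which were 2.11, 2.22 and 1.70. Within the family the r with Gfra2 was -0.80 for Gfra3, 0.60 for Ret and 0.49 for Gfra1, and between -0.08 and 0.17 for Gfra4 and the 3 ligands.

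The genes beside Gfra2 were lower or little different with the Tet1 hairpins. In the RefSeq order (assembly GRCm38.p6), the 5 measured genes on one side were Dok2, Xpo7, Npm2, Fgf17 and Dmtn, and on the other Fndc3a, Cysltr2, Rcbtb2, Rb1 and Lpar6. With the Tet1 hairpins their differences ran from -0.61 to 0.08 for shRNA 4 and from -0.48 to 0.05 for shRNA 5. No neighbour rose with both Tet1 hairpins (5.4% of all probe sets did), and 3 fell with both (3.4%), Dmtn, Fgf17 and Fndc3a. Fndc3a, the nearest on its side, differed by -0.31 and -0.48, and its shRNA 4 call was lost without any of Tet1 shRNA 4 replicates 1, 2 and 3 or scrambled replicates 1 and 3 (adjusted p 0.0699 to 0.109). Dok2, an adaptor of the family that binds RET and the nearest on the other side, differed by 0.08 and 0.02, and by 0.02 with the Sin3A shRNA. The Sin3A shRNA raised 2 neighbours (12.2% of all probe sets rose), Rb1, the retinoblastoma tumour suppressor, by 0.43 and Lpar6, a lysophosphatidic acid receptor, by 0.43. It lowered 3 (12.6% fell), led by Dmtn, an actin-bundling protein, at -0.94. The Sin3A call of Fndc3a was lost without Sin3A shRNA replicates 1 and 2 or scrambled replicates 1 and 2, each left out alone (adjusted p 0.05 to 0.079).

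**Figure D4:**
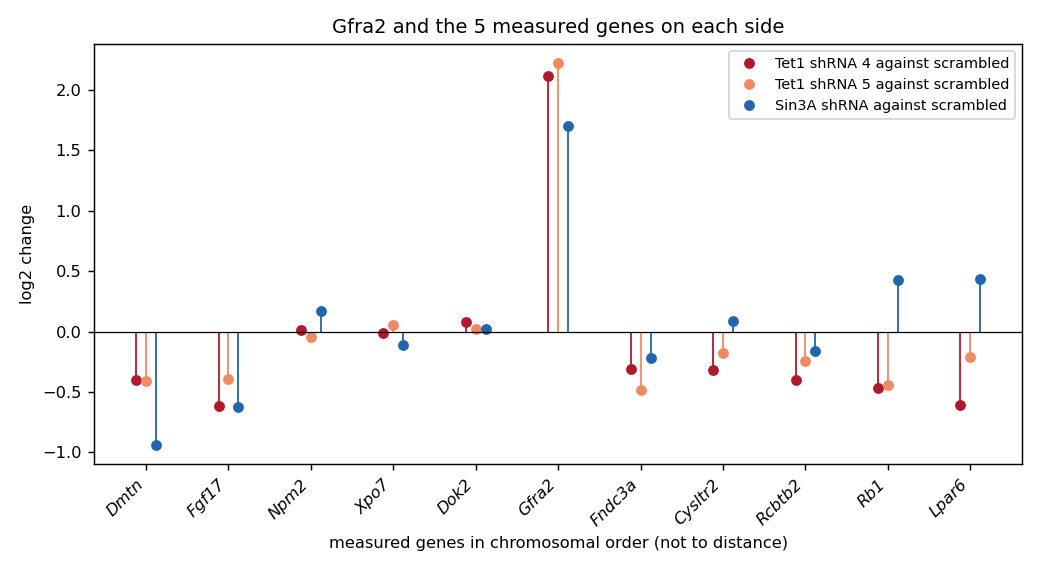
Log2 change of Gfra2 and of the 5 measured genes on each side of it, in chromosomal order and not to distance; each stem is the limma estimate with 1 hairpin against the scrambled arrays of its set (n = 3 a group). Gfra2 reaches 2.11, 2.22 and 1.70, while its neighbours span -0.61 to 0.08 with Tet1 shRNA 4 and -0.94 to 0.43 with the Sin3A shRNA.

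Promoter windows of 300 bases, each spanning a transcript start, were taken from RefSeq (GRCm38.p6) for 5 of the 8 genes: Gfra1, Gfra4, Gdnf, Nrtn and Artn. Gfra2, Gfra3 and Ret had no window among those used. Windows on 1 chromosome were left out beforehand, so a missing gene on that chromosome may still have one. Those of Gfra1, which rose with both Tet1 hairpins, and of Nrtn, which passed no test, are printed because CG dinucleotides are the sites where TET1 oxidises methylated cytosine. Both lie on the minus strand and are written 5′ to 3′ with CG in capitals, Gfra1 at chr19:58455349-58455648 and Nrtn at chr17:56757499-56757798.
Gfra1: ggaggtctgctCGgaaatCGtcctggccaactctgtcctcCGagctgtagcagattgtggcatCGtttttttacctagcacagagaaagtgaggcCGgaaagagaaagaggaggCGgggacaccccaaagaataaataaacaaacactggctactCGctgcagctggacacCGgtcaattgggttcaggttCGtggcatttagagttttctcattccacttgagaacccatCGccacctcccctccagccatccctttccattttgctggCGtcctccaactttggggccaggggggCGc
Nrtn: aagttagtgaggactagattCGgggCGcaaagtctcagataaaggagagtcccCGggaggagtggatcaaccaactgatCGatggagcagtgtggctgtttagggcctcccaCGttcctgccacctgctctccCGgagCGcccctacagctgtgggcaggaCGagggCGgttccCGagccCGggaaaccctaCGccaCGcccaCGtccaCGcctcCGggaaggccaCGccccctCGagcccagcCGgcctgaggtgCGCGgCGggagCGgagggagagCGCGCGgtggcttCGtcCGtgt
The Gfra1 window held 12 CG and 54.0% G and C, and 60.4% of the 32851 promoter windows in the table held fewer CG. The Nrtn window held 28 CG and 66.7% G and C, with 85.8% of windows holding fewer. The median window had 7 CG and 52.7% G and C, and 94.6% held at least 1 CG. Gfra4 had windows at 2 starts with 2 and 6 CG, Gdnf at 2 starts with 11 and 22, and Artn 1 with 16.

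Further letter patterns were searched on both strands. GGGCGG, the core of a GC box, which contains a CG, was found once in Nrtn and at 2 places in Artn, and it stood in 35.7% of all windows. TATAAA was found once, in a Gdnf window, and stood in 13.6% of all windows. CACGTG, a palindrome that also contains a CG, was in none of these windows and in 7.15% of all. A match describes the letters in the window and is no evidence of binding.

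Other genes of the pathway were counted in lists. Of 20 alternative receptors and binding partners, 19 were measured. With both Tet1 hairpins 2 rose and 3 fell, where 5.4% of all probe sets rose and 3.4% fell. The risers were Sdc1, a heparan sulphate proteoglycan, by 0.76 and 1.03, and Fzd3, a Wnt receptor that works with RET in axon guidance, by 0.94 and 0.81. Celsr3, a cadherin that acts beside Fzd3, fell by 0.77 and 0.89, Sort1, a sorting receptor, by 0.46 and 0.40, and Cdh1, E-cadherin, by 0.45 and 0.32. These 5 kept their Tet1 calls in every alternative. The Sin3A shRNA raised 5 (12.2% of all probe sets rose) and lowered 4 (12.6% fell), with Ncam1, a RET-independent receptor for GDNF, rising by 0.78 and Sdc1 by 0.69. The count of 5 was 3 without Sin3A shRNA replicate 2 or replicate 3. The count of 4 was 0 without Sin3A shRNA replicate 2 or scrambled replicate 1, 1 without Sin3A shRNA replicate 3 or scrambled replicate 3, and 2 without Sin3A shRNA replicate 1 or scrambled replicate 2.

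Of 38 RET adaptors and signalling proteins, 33 were measured. With both Tet1 hairpins 1 rose (5.4% of all probe sets did), Ptprj, a receptor phosphatase, by 0.56 and 0.68, and 3 fell (3.4% did). Those were Grb10, an adaptor that binds RET, by 0.63 and 0.74, Crkl, another adaptor, by 0.51 and 0.48, and Nras by 0.44 and 0.37. The Nras call with shRNA 5 was lost without Tet1 shRNA 5 replicate 2 (adjusted p 0.0851) or replicate 3 (0.0506), and without scrambled replicate 1 (0.0709) or replicate 3 (0.073). In the Sin3A comparison 5 rose and 6 fell, where 12.2% of all probe sets rose and 12.6% fell. Ptprj rose by 0.74 and Pik3r1, a regulatory subunit of phosphoinositide kinase, by 0.50, while Akt1, a kinase downstream of it, fell by 0.58 and Grb7, an adaptor, by 0.50. The 5 that rose numbered 2 without Sin3A shRNA replicate 2, Sin3A shRNA replicate 3 or scrambled replicate 1, and 3 without scrambled replicate 2 or replicate 3.

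Targets of GDNF and RET known from the ureteric bud or spermatogonia split in both directions. Of 25 genes 23 were measured, and 2 rose and 3 fell with both Tet1 hairpins (5.4% of all probe sets rose and 3.4% fell). Etv4, an ETS factor downstream of RET in the kidney, rose by 0.66 and 0.76. Bcl6b, a repressor induced by GDNF in spermatogonial stem cells, fell by 0.89 and 0.80. Under the Sin3A hairpin Etv4 rose by 0.45 and Bcl6b fell by 0.76, and the list held 4 that rose and 4 that fell (12.2% and 12.6% of all probe sets). Dusp6, a phosphatase that limits ERK, rose by 0.44 and Mmp14, a membrane protease, fell by 0.54 in that comparison.
The other Tet1 calls were less secure. Spry4 with shRNA 5 was lost without Tet1 shRNA 5 replicate 2 (adjusted p 0.052), and with shRNA 4 without Tet1 shRNA 4 replicate 1 (0.0587) or 2 (0.0629) or scrambled replicate 1 (0.0602) or 3 (0.0511). Mycn with shRNA 5 was lost without Tet1 shRNA 5 replicate 3 (0.0508). Egr1 with shRNA 4 was lost without any of Tet1 shRNA 4 replicates 1, 2 and 3 or scrambled replicates 2 and 3 (adjusted p 0.0678 to 0.155).

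Of 19 transcription factors known to control Ret, 16 were measured, and 2 rose with both Tet1 hairpins (5.4% of all probe sets did) while none fell with both (3.4% did). Pax8, a factor of the nephric lineage, rose by 0.94 and 0.99 and fell by 0.29 with the Sin3A shRNA. Gata3, which sustains Ret in the nephric duct, rose by 0.36 and 0.57 and fell by 0.42 with the Sin3A shRNA. Its shRNA 4 call was lost without Tet1 shRNA 4 replicate 1 (adjusted p 0.0671). It was also lost over the shRNA 4 and scrambled arrays alone, without a block (0.051) or with the replicate number as a block (0.0563). Each of these left 1 gene called higher with both. The Sin3A shRNA raised 1 (12.2% of all probe sets rose), Eya1, a transcriptional co-activator, by 0.53, and lowered 3 (12.6% fell), among them Phox2a, a factor of autonomic neurons, by 0.43.

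The GFRα proteins need a GPI anchor, and all 32 genes on the list of its synthesis and remodelling were measured. With both Tet1 hairpins 6 rose and none fell, where 5.4% of all probe sets rose and 3.4% fell. The list's median was 0.09 with shRNA 4 and 0.12 with shRNA 5, against 0.00 over all probe sets. The shares of all probe sets, here and for the other lists, include those of low signal. With low probe sets left out, 1664 were called higher with shRNA 4 and 2050 with shRNA 5, against 1460 and 1775 among all. The 5.4% may therefore understate the share among probe sets with clear signal. Whether the list rose more often than genes of similar signal was not tested. Pigh, a subunit of the enzyme that starts the anchor, rose by 0.65 and 0.55, and Pigc, another subunit of it, by 0.33 and 0.38. Both kept their Tet1 calls in every alternative in which they were measured (Pigc is left out by the filter on low probe sets). With the Sin3A shRNA 1 rose and 8 fell, where 12.2% of all probe sets rose and 12.6% fell, with a median of -0.11 against 0.01. Pigh fell by 0.40 there, Pigq, of the same enzyme, by 0.46, and Pgap3, which remodels the lipid of the anchor, by 0.55. In the fit of all 15 arrays, 9 of the 32 had a Tet1 effect above their Sin3A effect (11.3% of all probe sets did) and none had one below it (8.71%).

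The single-hairpin counts on the GPI list moved with single arrays and with normalization. With shRNA 4 the 6 that rose numbered 3 without Tet1 shRNA 4 replicate 3. With shRNA 5 the 7 that rose numbered 3 without Tet1 shRNA 5 replicate 1, Tet1 shRNA 5 replicate 3 or scrambled replicate 3, and 4 without Tet1 shRNA 5 replicate 2 or scrambled replicate 1. They also numbered 4 when quantile normalization was repeated. Dpm2 (adjusted p 0.101), Pigq (0.111) and Pigt (0.0519), all among the 6 that rose with both hairpins, lost their shRNA 5 call there. Dpm2 lost its shRNA 4 call there too (0.0825). The 8 that fell with the Sin3A shRNA numbered 13 with limma's trend and robust variance prior, and 4 without Sin3A shRNA replicate 2 or scrambled replicate 1, and the 1 that rose, Piga, was lost without Sin3A shRNA replicate 2 (adjusted p 0.0593), Sin3A shRNA replicate 3 (0.0552) or scrambled replicate 2 (0.0551).

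**Figure D5:**
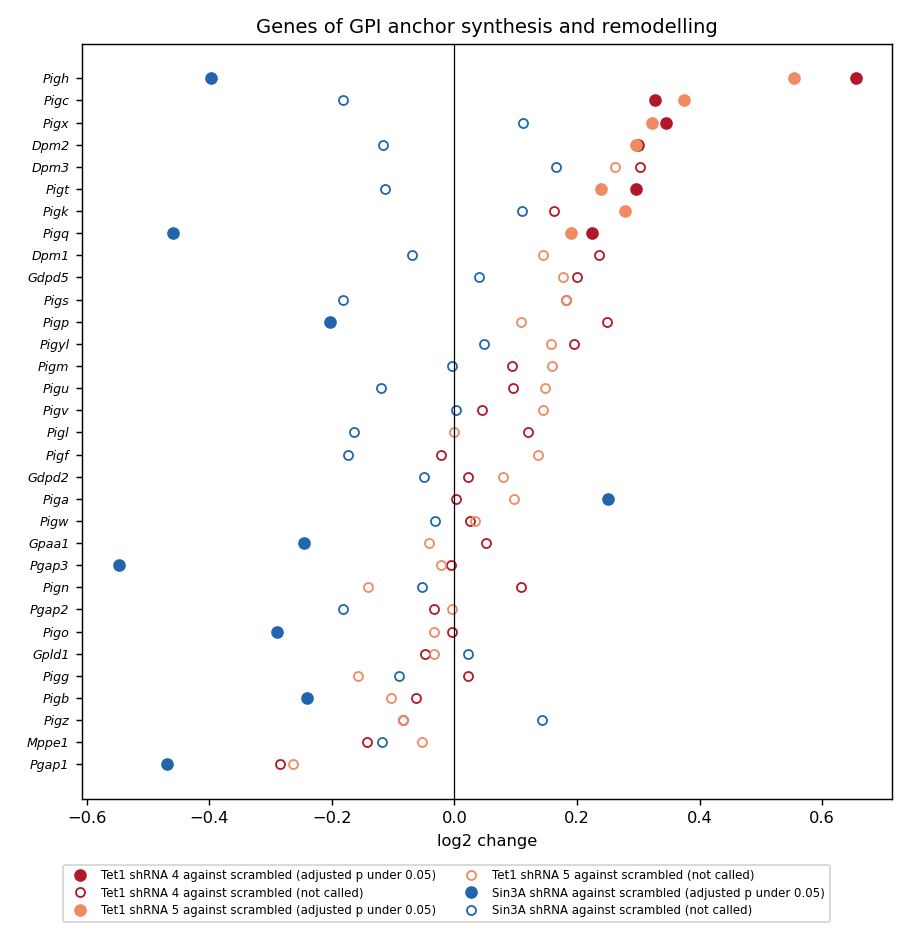
Log2 change of the 32 genes of GPI anchor synthesis and remodelling with each hairpin against the scrambled arrays of its set; each point is a limma estimate (n = 3 arrays a group), filled where called. Pigh, at 0.65 and 0.55 with the Tet1 hairpins and -0.40 with the Sin3A hairpin, is called in all 3 comparisons, and 6 genes are filled for both Tet1 hairpins.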

How the data were processed

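Labelled RNA of each of 15 samples was hybridised to 1 Affymetrix array, per the labels' protocols. The deposited values were log2 expression per probe set. Per the submitters' processing notes, affy, RMA and limma were used; order, settings and genome build are not given in the sources used here. Values were used unchanged. Platform annotation gave 1 symbol to 18786 of 21212 probe sets.

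The tests were two-sided and used lmFit and eBayes of limma 3.58.1 (R 4.3.3), with Benjamini-Hochberg adjustment over 21212 probe sets and a threshold of 0.05. The 9 Tet1-set arrays entered 1 fit and the 6 Sin3A-set arrays another. A fit of all 15 gave differences between effects. The steps were tested on simulated data.

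Replicate numbers come from the titles. The main fits were unpaired. Deviations from the group means correlated between same-numbered Tet1 shRNA 4 and scrambled arrays (r = 0.27, 0.52 and 0.17), so the replicate number as a block was among the alternatives. Scrambled replicate 1 correlated as well with shRNA 4 replicate 3 (0.28). Between groups of the Tet1 set, r was over 0.1 for 9 of 18 pairs of arrays with different numbers and for 3 of 9 with the same number. Same-numbered arrays of shRNA 5 and scrambled (-0.29 to 0.04), of both hairpins (-0.24 to -0.05) and of the Sin3A set (-0.27 to 0.02) had no r above 0.04.

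The 8 genes and all lists were chosen with earlier results of these data known. Of 185 listed symbols 169 were matched. Named genes were the 8 members, Tet1, Sin3a, Pspn, up to 6 called genes of a list, the 5 most like Gfra2 and its neighbours; marker genes, Gfral and Piga were added after their values were seen. Alternatives changed scaling, low-value filter, variance prior, block, samples fitted and single arrays. In the Tet1 set 49.1% of probe sets, and none in the Sin3A set, held equal values on at least 2 arrays. Those of Gfra1, Gdnf and Artn were among these probe sets, Gfra1 with 7.7104 on Tet1 shRNA 5 replicates 1 and 2.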

Additional observations from a re-analysis of the deposited data

Results flagged for a closer look

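Gfra1 differed between the Tet1 and the Sin3A knockdowns, which lie in separate array sets, so target and set cannot be told apart. Its change was 0.48 with Tet1 shRNA 4 and 0.34 with Tet1 shRNA 5, each called by limma, and -0.24 with the Sin3A shRNA, which was not called. The mean Tet1 effect minus the Sin3A effect was 0.65 (SE 0.10, limma adjusted p 0.000383), with all 6 Tet1 hairpin arrays above the scrambled arrays of their set and the Sin3A set overlapping its own.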

How the results depend on the processing

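No called difference changed sign under any alternative. Differences that passed no test did, among them Gfra4 with shRNA 4 (-0.14 to 0.04) and the Sin3A shRNA (-0.10 to 0.06), Gdnf with shRNA 4 (-0.15 to 0.04) and shRNA 5 (-0.13 to 0.03), Nrtn with shRNA 4 (-0.12 to 0.08) and shRNA 5 (-0.12 to 0.11), and Artn with shRNA 4 (-0.09 to 0.09). Of the 7 genes other than Gfra2, those called with Tet1 shRNA 4 numbered 2 and became 1 with the replicate block, with the replicate block and only the 2 groups compared (chosen after seeing the data), with low probe sets left out, with only the 2 groups compared and without both arrays that deviated alike, and 1 to 2 when single arrays were left out. With Tet1 shRNA 5 the 2 became 1 with low probe sets left out and with only the 2 groups compared, and 1 to 2 when single arrays were left out. The gene lost was Gfra3, which lies below that filter. The replicate block gave Gfra3 an adjusted p of 0.071 with shRNA 4 (0.0591 with only the 2 groups) and changed no other member's call. With shRNA 4, where same-numbered arrays correlated, the block also removed the calls of Dpm2 (0.0591) and Pigq (0.055) among the named genes. With only the 2 groups compared and no block, the calls of Gata3 (0.051) and Pigq (0.0604) were already lost, among others. With the block in that fit they were lost too (0.0563 and 0.062), as was Tdgf1 (0.0504), and Pgap1 gained a call (0.0418). Between the Tet1 hairpins 30 probe sets were called (12 higher and 18 lower, or 16 and 15 of 31 with each array centred on its median), and 0 with the replicate block, 72 with low probe sets left out, 48 with trend and robust variance, 0 with only the 2 groups compared, 1 without both arrays that deviated alike, and 0 to 6 when single arrays were left out. The 5261 Sin3A calls numbered 3359 to 4944 when single arrays were left out, lowest without Sin3A shRNA replicate 2. By olfactory receptor probe sets instead of the median, 6 genes rather than 3 stood above the comparison level on all scrambled arrays. The causes were not tested. Of the values of single genes and lists under an alternative, 5579 kept their side of the threshold or their count, 360 lost a call or fell to fewer, and 40 gained a call or rose to more. The 1 other value, the Gfra2 difference between effects, which has no test, moved to 0.30 when quantile normalization was repeated, against 0.46. Low signal limits Gdnf and Artn, near the level of mostly silent genes, and Gfra3 on the knockdown arrays. There Gfra3 stood at the 95.5th to 96.5th percentile of the olfactory receptor probe sets with the Tet1 hairpins. With the Sin3A shRNA it stood at the 94.5th to 95.9th, so the size of its fall is uncertain.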

Other observations

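Of 8 genes of the neurotrophins and their receptors, another neurotrophic family, 5 were measured. With both Tet1 hairpins 2 rose and none fell, where 5.4% of all probe sets rose and 3.4% fell. Ntrk3, the receptor tyrosine kinase for neurotrophin 3, rose by 0.84 with Tet1 shRNA 4 and 0.72 with Tet1 shRNA 5, and Ngfr, the shared low-affinity receptor, by 0.46 and 0.60. Ntrk2, the receptor for brain-derived neurotrophic factor, differed by 0.11 and 0.09 and did not pass (limma adjusted p 0.386 and 0.498). With the Sin3A shRNA Ngfr fell by 0.51 and Ntrk3 differed by 0.10, which did not pass (limma adjusted p 0.33). Both kept their Tet1 calls when any single array was left out.

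Thy1, a GPI-anchored surface protein on the fibroblast list, rose by 0.82 with Tet1 shRNA 4 and 0.81 with Tet1 shRNA 5. Of that list's 11 measured genes no other was called with both hairpins, and Postn, Dcn, Lum and S100a4 were not above the olfactory receptor level on all arrays of any group. The list's mean log2 level was 6.11 to 6.21 with Tet1 shRNA 4 and 6.08 to 6.21 with Tet1 shRNA 5, against 6.02 to 6.22 with the scrambled shRNA. With the Sin3A shRNA 3 of the 11 fell and none rose, where 12.6% of all probe sets fell and 12.2% rose. Those were Pdgfrb, a growth factor receptor, by 0.58, Fbln2, an extracellular matrix protein, by 0.27, and Thy1 itself, by 0.23 (limma adjusted p 0.000567, 0.0211 and 0.0463). The Thy1 call there was lost without Sin3A shRNA replicate 2 (0.125) or 3 (0.127) or scrambled replicate 1 (0.108) or 3 (0.127). The Fbln2 call was lost without Sin3A shRNA replicate 2 (0.067) or 3 (0.0532) or scrambled replicate 1 (0.0743) or 2 (0.06). The list's mean log2 level was 7.01 to 7.15 with the Sin3A shRNA, against 7.16 to 7.24 with its scrambled shRNA.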
